A study of Mus musculus with 21 samples.

Results

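The C/EBP genes were followed here in Ba/F3, an interleukin-3-dependent line of mouse pro-B cells that was made to express JAK2-V617F, the activated kinase of myeloproliferative neoplasms. The members are the 6 genes whose symbols carry the family name, Cebpa, Cebpb, Cebpd, Cebpe, Cebpg and Cebpz. Values of 5 of them were read in all 4 tables, among 14698 genes with values in at least 1 table, and Cebpa was not analysed here. The 21 RNA-seq libraries formed 7 groups of 3, and every group carried JAK2-V617F. Cells were given 1 μM ruxolitinib, 1 μM CHZ868 or DMSO, the solvent, for 6 h (Ruxo_treated, CHZ_treated, DMSO_treated). In the washout arms, cells were exposed for 1 h, washed 3 times in PBS and kept for 6 h without inhibitor (Ruxo_wash, CHZ_wash), and each arm had a DMSO group of its own (DMSO_wash and, for CHZ868, DMSO_wash_exp3). Ruxolitinib is a type I inhibitor of JAK1 and JAK2, which binds the active kinase, and CHZ868 is a type II inhibitor, which binds the inactive kinase. The labels do not say that the replicates were separate cultures, so p-values measure the spread between these libraries, which may be technical.

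C/EBP proteins are basic leucine zipper (bZIP) transcription factors that bind DNA as dimers, with each other or with other bZIP proteins. C/EBPα and C/EBPε drive the formation of granulocytes, C/EBPβ is needed for granulopoiesis under stress and for macrophage responses, and C/EBPδ rises in inflammation. C/EBPγ has no strong activation domain of its own and pairs with ATF4 at genes of the amino acid and oxidative stress response. Cebpz shares the name because its product binds the CCAAT box. It encodes a nucleolar protein with no bZIP domain that takes part in ribosome assembly.

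In GRCm38 (GENCODE M21), Cebpb is a gene of 1 exon at chr2:167688915-167690418 on the plus strand, and Cebpd, also of 1 exon, is at chr16:15887286-15891031 on the plus strand. Cebpe has 2 exons at chr14:54710360-54712174 on the minus strand. Cebpg has 2 exons at chr7:35046422-35056573 on the minus strand, 62.7 kb from Cebpa. Cebpz has 16 exons at chr17:78919006-78937066 on the minus strand. The sequences before the start sites of Cebpb and Cebpg are shown because these members had the largest differences between inhibitor and DMSO. They are RefSeq sequences of GRCm38.p6, 5′ to 3′ on the gene's strand, chr2:167688665-167688914 (plus) for Cebpb and chr7:35056574-35056816 (minus) for Cebpg. Capitals mark TGACG, the core of the cyclic AMP response element that ATF proteins bind, in Cebpb and CCAAT in Cebpg, each in either orientation.
Cebpb: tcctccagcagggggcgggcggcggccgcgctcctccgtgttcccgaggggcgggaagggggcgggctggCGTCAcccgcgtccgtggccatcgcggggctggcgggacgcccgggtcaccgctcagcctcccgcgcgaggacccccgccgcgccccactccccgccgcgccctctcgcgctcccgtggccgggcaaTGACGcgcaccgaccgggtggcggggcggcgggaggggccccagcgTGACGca
Cebpg: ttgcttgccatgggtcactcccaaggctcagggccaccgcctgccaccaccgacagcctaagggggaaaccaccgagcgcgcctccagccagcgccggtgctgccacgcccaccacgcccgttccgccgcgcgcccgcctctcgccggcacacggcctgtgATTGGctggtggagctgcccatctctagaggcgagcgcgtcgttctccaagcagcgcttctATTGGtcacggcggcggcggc
The window of 250 bases before the Cebpb start held TGACG 3 times, and 17.8% of 32544 promoter windows of that length held it at least once. The Cebpg window held CCAAT 2 times, and 33.8% of windows held it. TTCNNGAA and TTCNNNGAA (spaced STAT motifs), the STAT motif with a longer spacer, TGATGNAA (the C/EBP-ATF element) and TTGCGCAA (the C/EBP palindrome) were searched on both strands and had no match in either window, TGACG had none in that of Cebpg and CCAAT none in that of Cebpb. Of all windows 7.19%, 7.04%, 5.89%, 3.40% and 0.166% held these 5 motifs in turn. No 2 matches overlapped. A match is a description of letters and not a bound site.

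The deposited values are log2 CPM, where CPM is a gene's count scaled to the library's total, and each difference below is the inhibitor group's mean minus that of its DMSO group, with its standard error (SE). The members were chosen by name, with these same differences of log2 CPM known, so their differences are given as a description, with no test. Between 7880220 and 10673060 reads a library lay on all genes with values, in the 15 libraries whose values correspond to whole reads. The depth of the 6 ruxolitinib washout libraries is unknown. Levels are not comparable between tables. Of the pro-B markers, values of Cd79a, Cd79b and Tcf3 were read, and others, Pax5 and Ebf1 among them, were not analysed here. Of the T cell markers 0 of 5 had values, and of the mast cell and basophil markers Hdc alone, in Ruxo_treated libraries. RNA of bulk cultures was measured, so fewer cells with a transcript and less of it per cell cannot be told apart.

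**Figure D1:**
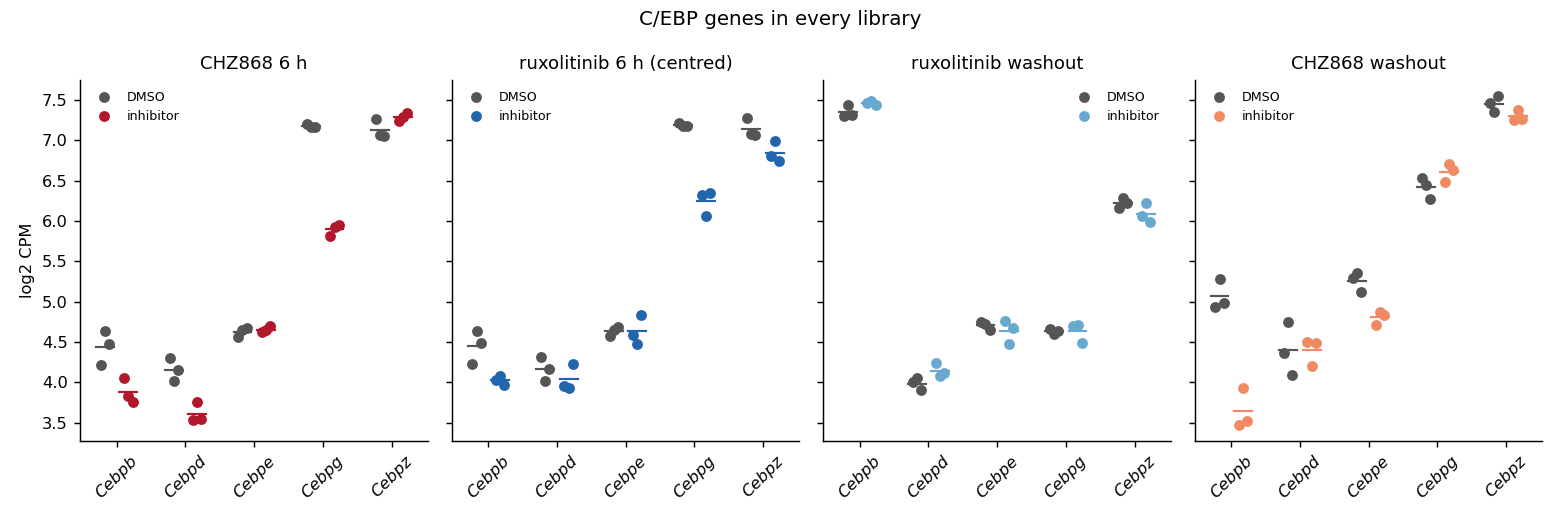
Log2 CPM of the 5 C/EBP genes in every library, with a panel for each comparison, points for single libraries (DMSO grey, inhibitor coloured) and short lines for group means. The ruxolitinib 6 h panel shows values centred on the median of shared genes. Cebpg is lower in both 6 h panels, and Cebpb is lower in the CHZ868 washout panel, where the means are 3.64 and 5.07.

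Levels between genes were compared per length, as CPM per kilobase of the longest coding transcript. In DMSO_treated cells the order was Cebpz (34.4 ± 2.9 CPM per kb, SD, n = 3), Cebpg (30.7 ± 0.37), Cebpe (19.9 ± 0.84), Cebpb (14.6 ± 2.1) and Cebpd (4.78 ± 0.49). No neighbours in that order overlapped. After 6 h of CHZ868, Cebpg stood below Cebpe, at 12.7 ± 0.58 CPM per kb against 20.3 ± 0.49. In DMSO_wash_exp3 cells the order was Cebpz (43.1 ± 3.0), Cebpe (30.9 ± 2.5), Cebpb (22.4 ± 3.0), Cebpg (18.2 ± 1.6) and Cebpd (5.76 ± 1.3), again with no overlap. After CHZ868 washout, Cebpb stood below Cebpg at 8.40 ± 1.5, and Cebpe (22.6 ± 1.3) and Cebpg (20.7 ± 1.6) overlapped. The ruxolitinib washout table gave another order in its DMSO_wash libraries, led by Cebpb at 108 ± 5.8, with Cebpe (21.1 ± 0.78), Cebpz (18.3 ± 0.81), Cebpg (5.28 ± 0.12) and Cebpd (4.24 ± 0.22) after it. Its values do not correspond to whole reads, unlike those of the other tables, and the part of this in the order was not tested.

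Cebpg, the partner of ATF4, had the largest difference of the members under continuous inhibitor. Its log2 CPM was 7.19, 7.16 and 7.16 in DMSO_treated and 5.82, 5.92 and 5.95 in CHZ_treated libraries. Every CHZ868 library lay below every DMSO library, and the difference was -1.28 (SE 0.04), which is 2.43-fold lower and ranked 368 from the largest fall among 11670 genes. The values rest on 1278, 1466 and 1356 reads with DMSO and 567, 456 and 493 with CHZ868. Under ruxolitinib for 6 h, after centring, Cebpg was at 6.32, 6.07 and 6.35 against 7.21, 7.17 and 7.18 in DMSO. The groups did not overlap, and the difference was -0.94 (SE 0.09), 1.92-fold lower and ranked 374 of 11624. In the washout arms the groups overlapped. Cebpg was at 4.70, 4.71 and 4.49 after ruxolitinib washout and 4.67, 4.60 and 4.64 with DMSO, a difference of -0.0036 (SE 0.076). After CHZ868 washout it was at 6.48, 6.71 and 6.63 against 6.53, 6.44 and 6.27, a difference of 0.19 (SE 0.10).

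Cebpb, the factor of stress granulopoiesis, differed most after CHZ868 washout. It was at 3.48, 3.93 and 3.53 in CHZ_wash and 4.94, 5.28 and 4.98 in DMSO_wash_exp3 libraries, on 91, 138 and 102 reads against 299, 365 and 260. The groups lay apart, and the difference was -1.42 (SE 0.18), which is 2.68-fold lower. Only 5 of 11355 genes had a larger fall in that table. Leaving out each library in turn gave differences from -1.56 to -1.31. In these libraries the summed CPM of 4 of 15 granulocyte and monocyte markers (Prtn3, Lcn2, Itgam, Csf1r) ran from 86.9 to 89.7 in CHZ_wash and from 58.0 to 85.6 in DMSO_wash_exp3, that of 3 erythroid markers from 326 to 401 and from 240 to 322, and that of 3 pro-B markers from 105 to 112 and from 127 to 148. Of the granulocyte and monocyte markers, Prtn3 had the highest level, at a mean log2 CPM of 6.02 in CHZ_wash and 5.65 in DMSO_wash_exp3. Its difference was 0.36 (SE 0.18), with no overlap. Csf1r (0.31), Lcn2 (0.06) and Itgam (-0.08) overlapped with DMSO. The part of these marker shifts in the Cebpb difference was not tested. Ruxolitinib washout libraries held Cebpb at 7.46, 7.49 and 7.44 against 7.30, 7.43 and 7.31, a difference of 0.11 (SE 0.05) in the other direction. The groups barely separated there, with the nearest libraries at 7.436 and 7.434. Marker sums in this arm lay apart as well, at 647 to 655 CPM in Ruxo_wash against 599 to 620 in DMSO_wash for 6 granulocyte and monocyte markers, 3509 to 3609 against 4008 to 4081 for 5 erythroid markers, and 119.4 to 122.9 against 112.8 to 119.3 for 3 pro-B markers. Prtn3 carried most of the granulocyte and monocyte sum, at a mean log2 CPM of 9.28 in Ruxo_wash and 9.18 in DMSO_wash. Prtn3 (0.10) and Lyz2 (0.11) were higher than with DMSO. S100a9 (-1.84), Csf1r (-0.36), Itgam (-0.23) and Lcn2 (-0.22) were lower. The groups overlapped for Lyz2, Csf1r and Lcn2. The part of these sums in the Cebpb difference was not tested.

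Under continuous inhibitor Cebpb was lower with both compounds. It was at 4.05, 3.84 and 3.76 with CHZ868 against 4.22, 4.63 and 4.47 with DMSO, with no overlap and a difference of -0.56 (SE 0.15), 1.47-fold lower. The centred values with ruxolitinib were 4.03, 4.08 and 3.97 against 4.23, 4.64 and 4.49, again with no overlap and a difference of -0.43 (SE 0.12). The nearest libraries were 4.05 and 4.22 with CHZ868 and 4.08 and 4.23 with ruxolitinib.

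Cebpd, the inflammation-induced member, was at 3.54, 3.75 and 3.55 after 6 h of CHZ868 and at 4.31, 4.01 and 4.15 with DMSO. The groups did not overlap, and the difference was -0.54 (SE 0.11). With ruxolitinib for 6 h the centred values were 3.96, 3.94 and 4.23 against 4.32, 4.02 and 4.17, which overlapped, with a difference of -0.13 (SE 0.13). After ruxolitinib washout Cebpd was at 4.24, 4.08 and 4.11 against 4.01, 4.05 and 3.91, with no overlap and a difference of 0.16 (SE 0.06). After CHZ868 washout it was at 4.50, 4.21 and 4.49 against 4.37, 4.75 and 4.10, a difference of -0.0072 (SE 0.21) with overlap.

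Cebpe, the factor of late granulocyte maturation, overlapped with DMSO in 3 comparisons. The difference was 0.03 (SE 0.04) with CHZ868 for 6 h, -0.0021 (SE 0.11) with ruxolitinib for 6 h and -0.07 (SE 0.09) after ruxolitinib washout. After CHZ868 washout its values were 4.72, 4.88 and 4.84 against 5.30, 5.35 and 5.12. These groups did not overlap, and the difference was -0.45 (SE 0.08).

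Cebpz, the nucleolar CCAAT factor, was at 6.80, 6.98 and 6.74 after 6 h of ruxolitinib, centred, against 7.28, 7.07 and 7.06 with DMSO. The groups did not overlap, and the difference was -0.30 (SE 0.10). With CHZ868 for 6 h it was at 7.23, 7.28 and 7.33 against 7.27, 7.07 and 7.05, which overlapped, with a difference of 0.16 (SE 0.08). The washout differences were -0.13 (SE 0.08) for ruxolitinib and -0.16 (SE 0.07) for CHZ868, both with overlap.

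**Figure D2:**
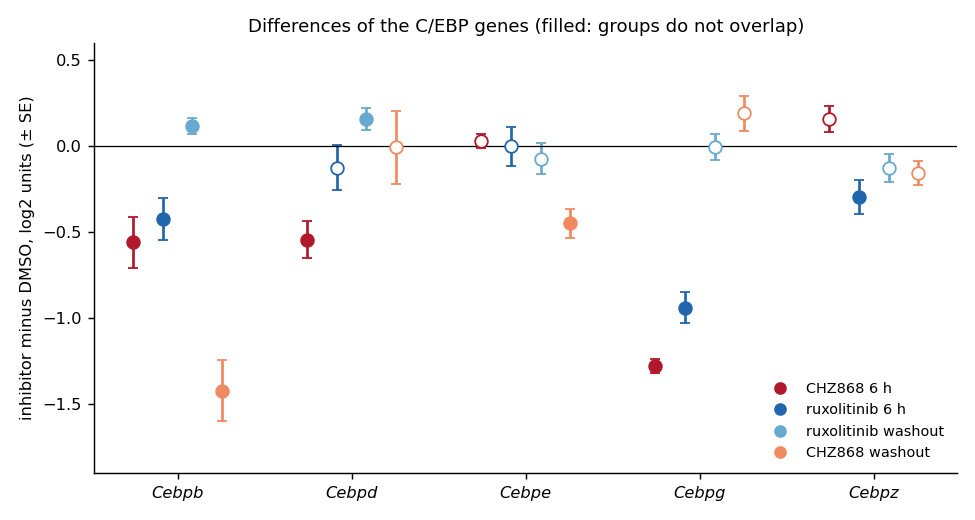
Difference of inhibitor minus DMSO in log2 units for the 5 C/EBP genes, with SE bars and a colour for each comparison (n = 3 libraries a group). Filled points mark groups that do not overlap. The lowest points are Cebpb after CHZ868 washout (-1.42) and Cebpg after 6 h of CHZ868 (-1.28).

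Read by comparison, 3 of 5 members lay wholly below DMSO after 6 h of CHZ868 (Cebpb, Cebpd, Cebpg), where 30.1% of all genes did and 59.7% did not overlap in either direction. Their median difference was -0.54, beside -0.0084 for all genes. With ruxolitinib for 6 h it was also 3 of 5 (Cebpb, Cebpg, Cebpz), against 20.1% of all genes below, 24.6% above and 44.6% in either direction, and the medians were -0.30 and 0.04. After ruxolitinib washout 2 of 5 lay wholly above DMSO (Cebpb, Cebpd), against 6.30% of all genes above and 12.9% in either direction. After CHZ868 washout 2 of 5 lay below (Cebpb, Cebpe), against 16.1% below and 31.0% in either direction. The rule used these contrasts, so nothing is read from the counts. Both 6 h comparisons share the DMSO_treated libraries.

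**Figure D3:**
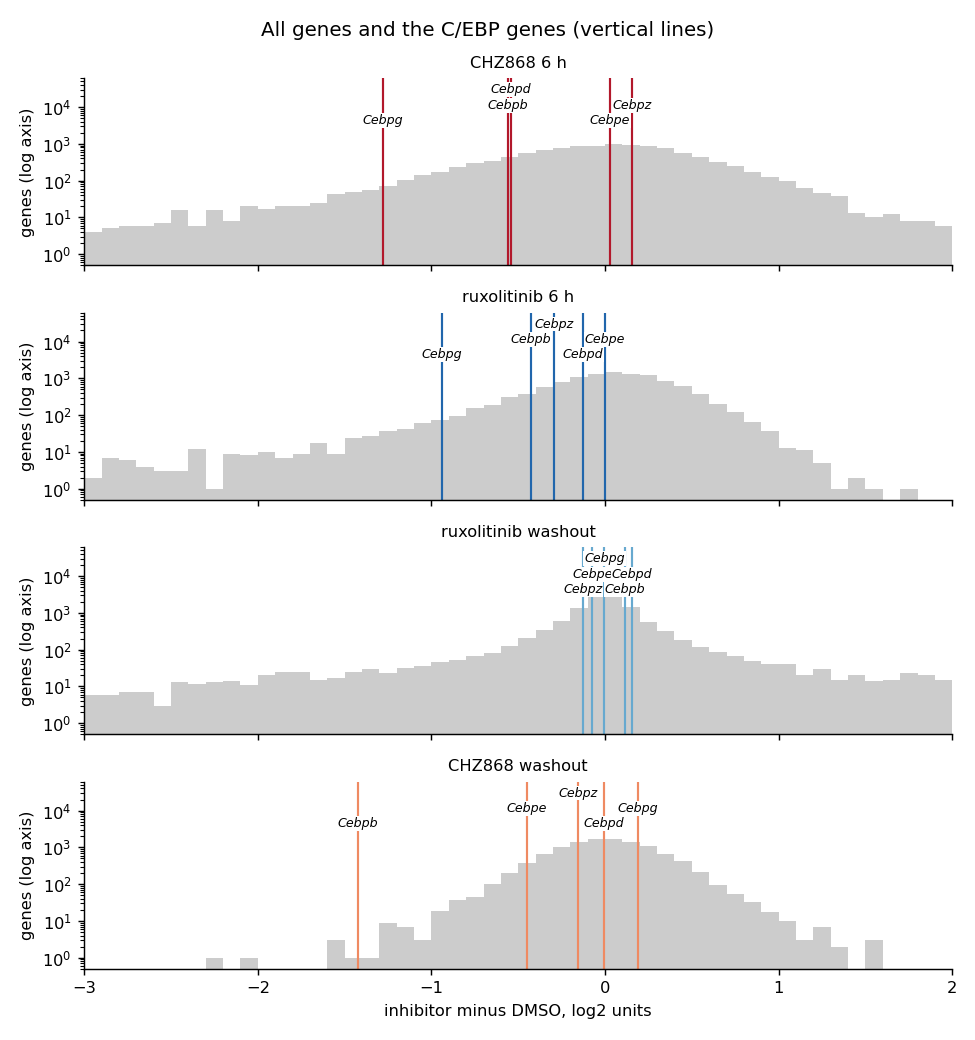
Number of genes (log axis) by difference of inhibitor minus DMSO in bins of 0.1 log2 units, with a panel for each comparison and vertical lines at the C/EBP genes. Genes beyond the plotted range are not drawn. Cebpb lies in the far lower tail after CHZ868 washout, and all 5 members lie between -0.13 and 0.16 after ruxolitinib washout.

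Set side by side at 6 h and at the same dose, the inhibitor groups lay apart at 3 members, where 35.3% of all genes did. Cebpz was higher with CHZ868 than with ruxolitinib by 0.48 (SE 0.08), Cebpd differed by -0.39 (SE 0.12) and Cebpg by -0.31 (SE 0.10), each with no overlap after centring. Cebpb (-0.11, SE 0.09) and Cebpe (0.06, SE 0.11) overlapped. The tables were normalized apart, and no test was run between them.

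Genes around the members were listed by their annotated position. Cebpzos lies on the opposite strand to Cebpz and overlaps it over 1301 bases. Its differences were -0.19 (SE 0.24) and -0.16 (SE 0.13) at 6 h with CHZ868 and ruxolitinib, 0.45 (SE 0.36) after ruxolitinib washout and 0.29 (SE 0.07) after CHZ868 washout, the last without overlap. Spidr overlaps Cebpd over 1808 bases on the opposite strand, and its differences ran from -0.23 (SE 0.11) to 0.11 (SE 0.06). Tmem189 overlaps Cebpb over 908 bases on the opposite strand and had values in the ruxolitinib washout table, where its difference was -0.14 (SE 0.05). Pepd, 1714 bases from Cebpg, ranged from -0.07 (SE 0.23) to 0.16 (SE 0.06). The antisense transcript Gm45095 overlaps Cebpg over 353 bases. It was lower, without overlap, after 6 h of CHZ868 (-0.75, SE 0.33) and after CHZ868 washout (-0.84, SE 0.22). With ruxolitinib for 6 h it differed by -0.51 (SE 0.38), with overlap. Its group means were low, from 1.42 to 2.35 log2 CPM. Gm44836 and Gm45094, which overlap Cebpg on its own strand over 1140 and 617 bases, had values after ruxolitinib washout alone, with differences of 0.74 (SE 0.48) and 0.04 (SE 0.40). Ndufaf7, 70 bases from Cebpz, ranged from -0.18 (SE 0.24) to 0.37 (SE 0.15). A530013C23Rik near Cebpb and Gm45096 near Cebpg were not analysed here, and Cebpe had no annotated neighbour within 5 kb. The libraries are strand-specific, but whether counting used strand is not stated, so reads of genes that overlap could be split between them. Cebpz also shares a stretch of 267 bases at 97.4% identity with AC118632.1, so part of its reads may be uncertain.

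The partners, regulators and targets of C/EBP proteins were taken from 6 lists of 66 genes in all. They were tested with limma-trend and Benjamini-Hochberg adjustment over the whole table. The lists were chosen with earlier results of these data known, so their p-values are not an independent test. After 6 h of CHZ868, 23 of 32 listed genes with values were called, 10 higher and 13 lower, where 53.2% of all genes were called, 26.8% higher and 26.4% lower. The median difference over the 32 genes was -0.02.

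Of the bZIP partners, 6 of 8 had values, and 4 fell and 1 rose. Ddit3, which encodes CHOP, a C/EBP-related protein, was at 3.90, 3.29 and 3.47 with CHZ868 and 4.96, 5.14 and 5.23 with DMSO, and fell by 1.56 (SE 0.17, limma adjusted p = 1.7e-06). Atf4, the stress-response factor that pairs with C/EBPγ, was at 6.80, 6.93 and 6.71 against 8.14, 8.21 and 8.19 and fell by 1.37 (SE 0.07, limma adjusted p = 3.5e-10). Every CHZ868 library was below every DMSO library for both genes. Fos fell by 0.87 (limma adjusted p = 0.0041) and Atf5 by 0.72 (limma adjusted p = 0.00098), Jun rose by 0.60 (limma adjusted p = 0.00029), and Batf did not pass the test, with a difference of 0.18 (SE 0.19).

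Of the regulators of C/EBP proteins, 9 of 10 had values, and 3 rose, 3 fell and 3 did not pass. Trib3, a pseudokinase induced by ATF4 and CHOP, was at 4.16, 4.09 and 4.14 against 6.72, 6.85 and 6.84 and fell by 2.67 (SE 0.09, limma adjusted p = 7.9e-12), 6.38-fold. Calr, which binds Cebpa and Cebpb transcripts, rose by 0.88 (limma adjusted p = 1.1e-08). Gsk3b, a kinase that phosphorylates C/EBP proteins, rose by 0.43 (limma adjusted p = 5.4e-05), and Fbxw7, a ubiquitin ligase subunit, fell by 0.45 (limma adjusted p = 0.00093). Trib1, a close relative of Trib3 that promotes the breakdown of C/EBPα, did not pass the test (0.53, SE 0.32).

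The glutathione genes that ATF4 and C/EBPγ are known to control did not move together. Of 4 with values out of 6, Slc7a11, the cystine transporter, was at 3.89, 3.82 and 4.16 against 5.88, 6.02 and 6.10 and fell by 2.04 (SE 0.12, limma adjusted p = 3.3e-09). Gss, Gclc and Gclm, enzymes of glutathione synthesis, rose by 0.74, 0.59 and 0.40 (limma adjusted p = 4.4e-05, 0.00014 and 5.8e-05). Of the 8 nucleolar partners of Cebpz, 3 fell and 2 rose. Noc2l, Bop1 and Wdr12 fell by 0.68, 0.43 and 0.30 (limma adjusted p = 1e-06, 0.0005 and 0.0011), and Mettl14 rose by 0.28 (limma adjusted p = 0.018). Pes1 rose by 0.21 (limma adjusted p = 0.038), and its call held in 1 of the 6 fits that each left out a library (without CHZ_treated replicate 1) and was also lost without the trend and under quantile normalization. The Mettl14 call was lost without the trend, and it was also lost without DMSO_treated replicate 1 or 2 or CHZ_treated replicate 1 (limma adjusted p = 0.071, 0.078 and 0.067).

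Myeloid target genes were mostly without values, with 3 of 24 analysed. Csf1r, the receptor of macrophage colony-stimulating factor, and Prtn3, a granule protease, fell by 1.18 and 0.85 (limma adjusted p = 0.0058 and 2.4e-05), and Spi1, which encodes PU.1, rose by 0.75 (limma adjusted p = 4.9e-06). Prtn3 and Csf1r are also the 2 of 15 granulocyte and monocyte markers with values, and their summed CPM ran from 44.2 to 47.9 with DMSO and from 22.4 to 27.6 with CHZ868. The summed CPM of Gata1, Klf1 and Hba-a1, 3 of 6 erythroid markers, ran from 528 to 569.9 with DMSO and from 701 to 744 with CHZ868. That of the 3 pro-B markers ran from 119.4 to 130.6 with DMSO and from 129.2 to 149.7 with CHZ868, with overlap. The part of these sums in the results was not tested. Of the inflammatory targets 2 of 10 had values, C3 and Il6, and neither passed the test, with differences of 0.33 (SE 0.19) and 0.21 (SE 0.34).

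With ruxolitinib for 6 h, 2 of 32 listed genes lay wholly apart from DMSO by 1 log2 unit or more, both lower, where 2.83% of all genes did so. Trib3 differed by -1.43 (SE 0.20) and Slc7a11 by -1.36 (SE 0.09). Without the size limit, 13 of 32 lay wholly below DMSO and 6 above, beside 20.1% and 24.6% of all genes. Atf4 (-0.74, SE 0.10) and Ddit3 (-0.50, SE 0.11) were among those below, as were Fos (-0.87, SE 0.11) and Noc2l (-0.63, SE 0.07), while Jun (0.49, SE 0.09), Gss (0.75, SE 0.13) and Calr (0.58, SE 0.07) were above. Summed CPM of the 3 erythroid markers ran from 750 to 1102 in Ruxo_treated against 528 to 569.9 in DMSO_treated libraries, of the 3 pro-B markers from 155 to 161 against 119 to 131, and of Prtn3 and Csf1r from 21.8 to 47.2 against 44.2 to 47.9. These sums are from separate tables with no centring, and their part in the results, those of Cebpg, Cebpb and Cebpz included, was not tested. Centred Prtn3 was at 5.18, 4.04 and 5.13 in Ruxo_treated libraries, against 5.22, 5.17 and 5.23 with DMSO, so 1 library was low.

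**Figure D4:**
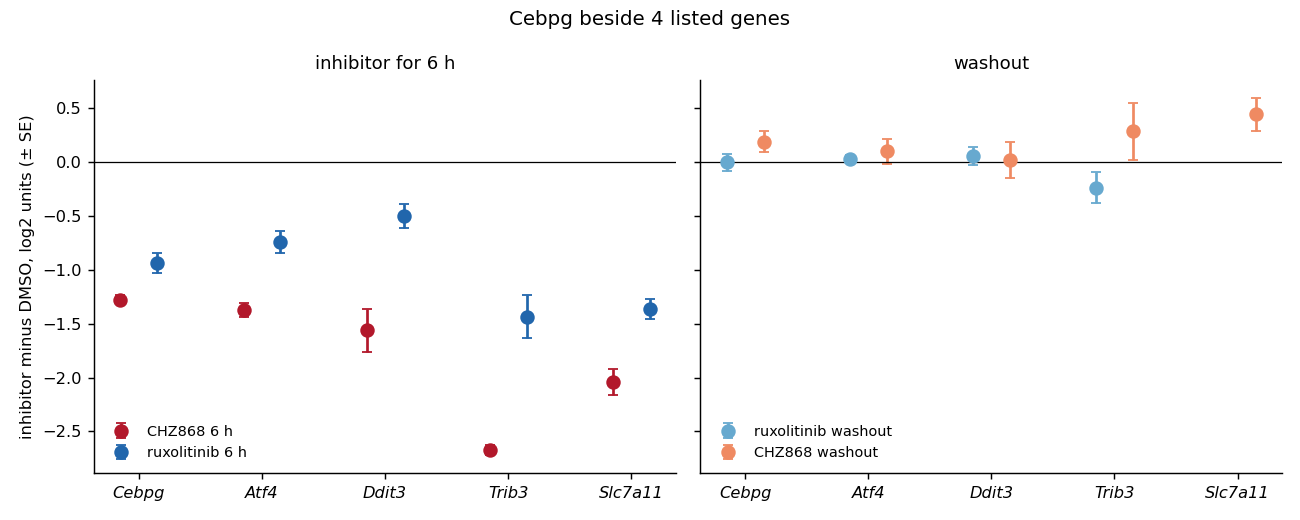
Difference of inhibitor minus DMSO in log2 units (with SE, n = 3 libraries a group) for Cebpg, Atf4, Ddit3, Trib3 and Slc7a11, under inhibitor for 6 h (left) and after washout (right). All 5 are below 0 at 6 h with both inhibitors, from -2.67 to -0.50, and after washout they lie between -0.24 and 0.44. Slc7a11 is not plotted for ruxolitinib washout. The genes beside Cebpg were picked from the lists, which were chosen with earlier results of these data known, so nothing is read from their shared direction. Gss, Gclc and Gclm, of the same list as Slc7a11, are not plotted. At 6 h they were above 0, at 0.74, 0.59 and 0.40 with CHZ868. With ruxolitinib they were at 0.75, 0.24 and 0.16, where the groups overlapped for Gclc and Gclm.

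After ruxolitinib washout, limma-trend called 0 of 37 listed genes and 0.0229% of all genes. An unadjusted p under 0.05 was found for 3 of 37 listed genes, beside 920 of all 13085 genes. Those 3, named after their values were seen, were S100a9 (-1.84, SE 0.51, with no overlap), Prtn3 (0.10, SE 0.01, with no overlap) and Spi1 (-0.18, SE 0.07, with overlap). S100a9 was near the floor, at a mean log2 CPM of -0.46 in Ruxo_wash and 1.38 in DMSO_wash. Its difference shrank to as little as -1.09 under the alternatives that kept all libraries. Atf4 differed by 0.03 (SE 0.03), Ddit3 by 0.06 (SE 0.08) and Trib3 by -0.24 (SE 0.14). After CHZ868 washout, 2 of 34 were called, both lower, where 4.02% of all genes were called and 2.07% were lower. Spi1 fell by 0.57 (SE 0.14, limma adjusted p = 0.046) and Bop1 by 0.36 (SE 0.08, limma adjusted p = 0.042). Leaving out a CHZ_wash library or DMSO_wash_exp3 replicate 1 left 0 calls, and without DMSO_wash_exp3 replicate 2 or replicate 3 there were 4 and 6. Atf4 (0.10, SE 0.12), Ddit3 (0.02, SE 0.17), Trib3 (0.28, SE 0.27) and Slc7a11 (0.44, SE 0.15) did not pass. The difference between the washout effects was tested as an interaction, which called 0 of 32 listed genes and 1.90% of all genes. At an unadjusted p under 0.05 there were 10 of 32 listed genes, beside 1903 of all 10078 genes. Each inhibitor had its own washout arm and DMSO group, so inhibitor and arm cannot be told apart in that test.

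The genes whose 4 differences were nearest those of Cebpg, by root mean square distance over the 4 comparisons among 9119 genes, were Slc25a22 (0.049), Snhg15 (0.052) and 1110065P20Rik (0.060). Slc25a22, a mitochondrial glutamate carrier, differed by -1.23 with CHZ868 and -1.01 with ruxolitinib at 6 h and by 0.03 and 0.14 after ruxolitinib and CHZ868 washout. Cebpb was added to this search after its values were seen. Its nearest genes were farther off, Jdp2 (0.357), C2 (0.413) and Bloc1s3 (0.427). After CHZ868 washout these 3 differed by -0.79, -0.66 and -0.63 in turn, beside -1.42 for Cebpb.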

How the data were processed

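RNA of 21 libraries was sequenced from a strand-specific kit, and the authors deposited log2 CPM values in 4 tables, after TMM normalization, a filter on low values and the addition of a small constant. For the authors' steps the study's methods name kallisto, GRCm38 and edgeR, whereas the submitters' processing notes name STAR 2.7.3a, edgeR 4.0.16 and GRCm39. Which made each table is not settled here. In all but the ruxolitinib washout table, 100% of values under 10 CPM were whole reads (tolerance 0.05 reads) once the constant was removed. The members and gene lists were chosen with earlier results of these data known.

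Replicates were taken from the labels. Listed genes were tested by limma-trend (limma 3.58.1, R 4.3.3) over all genes of a table, with Benjamini-Hochberg adjustment and a threshold of 0.05, because the voom weights of the study's methods need counts. The fits were also run on simulated data, which held no effect shared across the genes of a library, and nothing is concluded from that run. Ruxo_treated and DMSO_treated libraries, held in separate tables, were centred on the median of 11624 shared genes, with no test. The SE of listed genes after 6 h of CHZ868, and of Spi1 and Bop1 after CHZ868 washout, is from limma, and elsewhere it comes from the group SDs. Genes named are the members, the 4 largest differences among those called in each list after 6 h of CHZ868, genes within 5 kb of a member and the 3 nearest patterns of members that differed by at least 1 log2 unit at 6 h. Other listed genes were named after their values were seen. Gene positions came from GENCODE M21. Alternatives were normalization, pseudocount, filter, trend, robust estimation, replicate block and leaving out each library. Voom weights on the recovered reads were added after seeing the data.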

Additional observations from a re-analysis of the deposited data

Results flagged for a closer look

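The washout differences of Cebpb went in opposite directions, 0.11 after ruxolitinib and -1.42 after CHZ868, a gap of 1.54 log2 units. Neither arm overlapped, but after ruxolitinib washout the nearest libraries were at 7.436 and 7.434, and after CHZ868 washout at 3.93 and 4.94. The difference between the arms was not tested for Cebpb, since it was chosen with these values known. Each arm was normalized apart and had its own DMSO group, with Cebpb at a mean of 7.35 in DMSO_wash and 5.07 in DMSO_wash_exp3. Inhibitor and arm therefore cannot be told apart in this gap. Cebpz at 6 h was at 0.16 with CHZ868, where the groups overlapped, and at -0.30 with ruxolitinib, a gap of 0.45, and this difference was not tested either.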

How the results depend on the processing

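For the members, 177 of 180 differences under alternatives moved by less than the spread between replicates, and the sign changed only among differences whose groups overlapped (Cebpe in 3 comparisons, Cebpg after ruxolitinib washout and Cebpd after CHZ868 washout). Under quantile normalization after 6 h of CHZ868, Cebpe was at 0.12, Cebpg at -1.34 and Cebpz at 0.047. The count of listed genes with ruxolitinib for 6 h was 9 at a limit of 0.5 log2 units. After CHZ868 washout the count of 2 became 0 without the trend, 1 under quantile normalization and between 0 and 6 when single libraries were left out. The interaction gave between 0 and 4, the calls coming without DMSO_wash_exp3 replicate 2 (2) or replicate 3 (4). After 6 h of CHZ868 the count of 23 stayed between 21 and 24 under every alternative run. The causes were not tested. All genes called after CHZ868 washout numbered 457, 0 without the trend, 1298 and 1426 without DMSO_wash_exp3 replicates 2 and 3, and 0 or 1 without any of the other 4 libraries. The interaction called 191 of all genes, 14 without the trend, and from 5 (without CHZ_wash replicate 3) to 628 (without DMSO_wash_exp3 replicate 2) when single libraries were left out. The depth of the ruxolitinib washout libraries is unknown.

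Same-numbered libraries did not deviate together (correlations from -0.05 to 0.05), so the replicate numbers are not taken as pairs. With the replicate block, 1 listed gene was called after CHZ868 washout, and all genes called numbered 6192 after 6 h of CHZ868, 0 after ruxolitinib washout, 539 after CHZ868 washout and 6 for the interaction, against 6214, 3, 457 and 191 without it.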
